A study of Mus musculus with 4 samples.

Results

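The subject is the machinery that licenses replication origins, unwinds DNA and copies it: 50 genes, each represented by the 1 probe set (feature) with a single gene symbol and the highest mean over the arrays, of 22431 features and 18920 named genes in all. The 50 genes were chosen by name, with earlier results of these data known, so shares over all features are no independent yardstick. They were sorted into 5 steps: origin licensing (9 genes), helicase (15), primase and polymerases (9), clamp loading with lagging-strand maturation (13) and checkpoint (4). All 50 were measured, and no filter on low values was applied. Gene expression was measured on Affymetrix whole-transcript arrays in retinal cells sorted from mouse embryos at the embryonic stage E17.5. The EGFP-positive and the EGFP-negative fraction had 2 arrays each. Both fractions came from mice of the genotype BAC-Crx-EGFP on the background 129Sv/Ev, so the negative cells carried the transgene too. In such mice a bacterial artificial chromosome places the green fluorescent protein EGFP under the regulatory sequences of the homeobox gene Crx, which is active in photoreceptor precursors and in the photoreceptors they form. The fraction is therefore defined by reporter fluorescence, and the labels give neither the gate nor the number of animals behind a sample. They also leave it unsaid whether the replicates are separate litters, animals or sorts, and p-values here reflect the variation among these 4 arrays alone, part or all of which may be technical.

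Before a cell copies its DNA, the origin recognition complex (ORC), CDC6 and CDT1 load the ring-shaped MCM2-7 complex onto origins, and geminin blocks CDT1 once S phase has begun. The kinase CDC7-DBF4 then lets CDC45 and GINS join the MCM ring to form the active helicase, primase and polymerase alpha start new strands, and polymerases delta and epsilon extend them on the sliding clamp PCNA, which the RFC complex loads. In the late embryonic retina progenitors still divide while photoreceptor precursors and other neurons have left the cell cycle, and many replication genes are transcribed in late G1 and S phase under control of E2F factors.

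The E2F-type letters TTTGGCGC, TTTCCCGC, TTTCGCGC or TTTGCCGC were searched for on both strands of RefSeq promoter windows (GRCm38.p6), each with 250 bases before the annotated start and 50 from it on. Of the 50 genes, 40 had a window. Gmnn, Mcm4, Gins1, Gins2, Gins4, Prim2, Pole, Rfc2, Dscc1 and Tipin had none. The letters stood in windows of 17 of the 40 genes (42.5%), against 704 of 27025 genes with a window (2.6%). Shown are, for each step, the gene with a match and the most negative difference between the fractions, and Orc3, the gene with a match and a difference above 0. The windows are chr11:98907901-98908200 on the plus strand for Cdc6, chr4:34614893-34615192 on the minus strand for Orc3, chr1:128359656-128359955 on the minus strand for Mcm6, chrX:93632106-93632405 on the minus strand for Pola1, chr7:13278576-13278875 on the plus strand for Lig1 and chr4:126556730-126557029 on the plus strand for Clspn. Each is written along the gene's own strand, and capitals mark the E2F-type letters or their reverse complement. In Mcm6 the first run of capitals holds a match on each strand, and these overlap.
Cdc6: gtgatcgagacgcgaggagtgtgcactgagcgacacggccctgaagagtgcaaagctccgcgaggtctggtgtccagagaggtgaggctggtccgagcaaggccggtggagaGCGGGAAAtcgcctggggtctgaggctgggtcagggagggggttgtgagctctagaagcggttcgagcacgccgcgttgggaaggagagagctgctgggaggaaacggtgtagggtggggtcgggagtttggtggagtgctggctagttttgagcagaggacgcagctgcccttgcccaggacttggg
Orc3: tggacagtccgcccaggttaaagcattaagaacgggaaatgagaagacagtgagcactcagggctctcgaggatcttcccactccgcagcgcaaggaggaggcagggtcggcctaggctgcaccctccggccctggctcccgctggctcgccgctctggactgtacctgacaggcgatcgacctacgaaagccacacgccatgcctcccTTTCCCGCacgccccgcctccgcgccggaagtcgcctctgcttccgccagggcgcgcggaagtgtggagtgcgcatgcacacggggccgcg
Mcm6: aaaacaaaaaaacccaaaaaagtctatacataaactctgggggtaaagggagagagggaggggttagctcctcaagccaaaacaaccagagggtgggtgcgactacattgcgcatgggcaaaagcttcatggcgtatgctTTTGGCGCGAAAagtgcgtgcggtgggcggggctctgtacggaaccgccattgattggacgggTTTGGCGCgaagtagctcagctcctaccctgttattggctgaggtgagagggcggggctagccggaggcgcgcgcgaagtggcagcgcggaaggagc
Pola1: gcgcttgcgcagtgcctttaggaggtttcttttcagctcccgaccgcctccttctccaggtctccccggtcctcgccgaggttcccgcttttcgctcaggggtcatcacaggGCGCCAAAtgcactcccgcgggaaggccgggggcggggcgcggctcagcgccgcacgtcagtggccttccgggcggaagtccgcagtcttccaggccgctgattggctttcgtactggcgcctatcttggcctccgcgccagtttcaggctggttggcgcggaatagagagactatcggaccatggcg
Lig1: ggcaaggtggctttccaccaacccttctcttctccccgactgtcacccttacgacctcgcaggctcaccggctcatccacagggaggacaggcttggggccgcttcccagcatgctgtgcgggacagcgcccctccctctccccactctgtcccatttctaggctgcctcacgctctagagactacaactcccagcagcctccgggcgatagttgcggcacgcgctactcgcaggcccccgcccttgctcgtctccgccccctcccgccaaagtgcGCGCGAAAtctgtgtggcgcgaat
Clspn: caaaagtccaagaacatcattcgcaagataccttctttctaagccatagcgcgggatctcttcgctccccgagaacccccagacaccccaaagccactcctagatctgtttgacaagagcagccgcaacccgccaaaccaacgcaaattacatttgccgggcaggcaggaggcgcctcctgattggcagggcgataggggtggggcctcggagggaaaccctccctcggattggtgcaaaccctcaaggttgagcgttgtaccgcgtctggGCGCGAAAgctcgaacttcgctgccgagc

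Of the 23 matches in the 17 windows, 16 lay between 100 bases before the start and the end of the window. Overlapping matches occurred in Mcm5 and Mcm6. By count the helicase step, the largest with 15 genes, had the most genes with a match, Mcm3, Mcm5, Mcm6, Mcm7, Mcm8 and Gins3. The others were Orc1, Orc3, Cdc6 and Cdt1 of licensing, Pola1, Pold1, Pold3 and Pole2 of the polymerases, Rfc3 and Lig1 of the clamp step, and Clspn. The letters CCAAT of the NF-Y box, on either strand, stood in 24 of the 40 genes (60.0%) and in 41.1% of all genes with a window. The GC box letters GGGCGG stood in 29 (72.5%), against 38.2%, and the letters TTTGAA of the cell-cycle element CHR in 7 of the 40, against 20.2%. Windows of the 40 genes had a median GC content of 61.3%, against 52.7% over all windows, and the part of GC content in these shares was not tested. The median log2 difference between the fractions was -0.95 for the 17 genes with E2F-type letters and -0.89 for the other 23. This gap was not tested, and a match describes letters in a window, not a bound site.

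**Figure D1:**
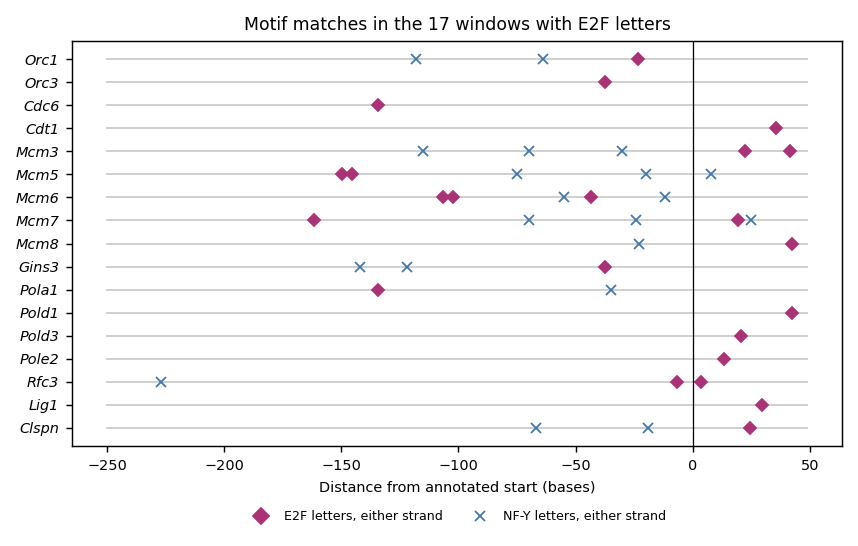
Positions of E2F-type letters (diamonds) and of NF-Y box letters (crosses), on either strand, in the promoter windows of the 17 replication genes with E2F-type letters. The horizontal axis is the distance from the annotated start in bases, each grey line is 1 window, and 16 of the 23 diamonds lie from 100 bases before the start onward.

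Most replication genes had lower intensities in EGFP-positive than in EGFP-negative cells, and the median difference was below 0 at all 5 steps. The log2 difference, EGFP-positive minus EGFP-negative, was below 0 in 48 of the 50 genes, with a median of -0.935 against -0.01 over all 22431 features. In 21 genes the negative fraction was at least 2-fold higher, against 1.02% of all features. Helicase, polymerase, clamp and checkpoint genes lay wholly below 0, and the 2 genes above 0 were the ORC subunits Orc3 and Orc4. The sum of the 50 intensities was 33214 and 23508 on the positive arrays, against 54670 and 51757 on the negative arrays. In bulk samples such as these, fewer replicating cells and less of these RNAs per cell cannot be told apart.

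At an adjusted p under 0.05 (limma, Benjamini-Hochberg over all features), 4 of the 50 genes (8%) fell in EGFP-positive cells, that is, were called lower, against 0.143% of all features called lower. They were the GINS subunit Gins1, the clamp loader subunit Rfc4, Dscc1 of the alternative clamp loader and the checkpoint kinase Chek1. None was called higher, where limma called 0.82% of all features. At unadjusted p-values under 0.05, 48 genes were lower (background 9.83%) and 1, Orc3, was higher (background 9.34%). Both positive arrays lay below both negative arrays in 48 genes (background 25.3%) and above them in 1, Orc3 (background 22.3%). Of the 50 differences, 44 (88%) were among the lowest 5% of all features, that is below -0.54. The 46 genes not called had limma adjusted p-values between 0.0565 and 0.629.

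**Figure D2:**
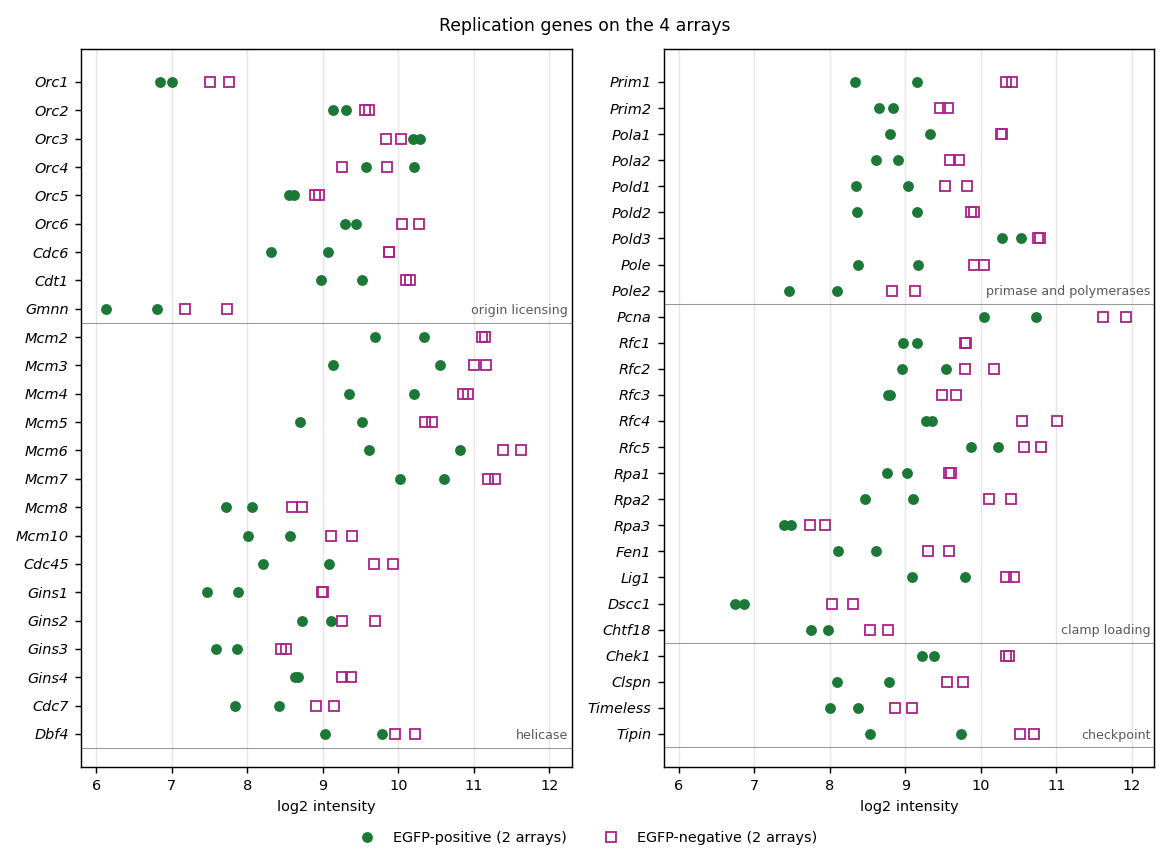
Log2 intensity of the 50 replication genes on each array, by step, with EGFP-positive arrays as filled circles and EGFP-negative arrays as open squares. In 48 genes both circles lie left of both squares, in Orc3 they lie right of them, and in Orc4 the fractions overlap.

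The positive arrays differed from each other more than the negative ones in these genes. Positive replicate 2 lay below positive replicate 1 in 48 of 50 genes, with a median log2 gap of -0.52. Negative replicate 2 lay below negative replicate 1 in 33, with a median gap of -0.09. Of all 22431 features, replicate 2 was the lower in 10215 on the positive arrays and in 12903 on the negative arrays. The median SD of log2 values within a fraction was 0.38 over the positive arrays and 0.13 over the negative arrays, while the medians over all features were 0.10 and 0.09. In the 4 called genes the median SD was 0.10 and 0.11. Set against negative replicates 1 and 2, positive replicate 1 gave median differences over the 50 genes of -0.73 and -0.63. Positive replicate 2 gave -1.27 and -1.12. Each pair of arrays thus placed the median well below 0, and the size depended on which positive array was used. In the fits that leave out 1 array, the lone array of a fraction is assumed to vary like the other fraction. Their p-values thus do not measure spread within the fraction left with 1 array. Without positive replicate 2, limma called 3 genes lower (background 0.0535%), namely Gins1, Dscc1 and Prim1. Without positive replicate 1 it called 41 (background 3.4%). Without either negative array it called 0 features, and Crx and Sox2 were not called either. At unadjusted p-values under 0.05, 35 of the 50 genes were then lower without negative replicate 1 (background 5.14%) and 41 without negative replicate 2 (background 7.27%). All 48 genes below 0 stayed there in each of these fits, which the lack of overlap fixes in advance.

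**Figure D3:**
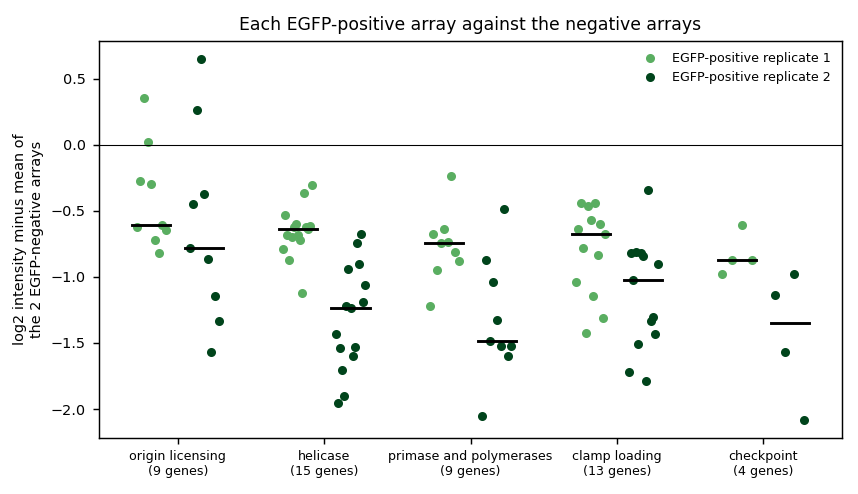
Log2 intensity of each positive array minus the mean of the 2 negative arrays, by step, with 1 point per gene and a black bar at the median. Pale points are positive replicate 1 and dark points positive replicate 2. The dark medians lie below the pale ones in all 5 steps, and apart from Orc3 and Orc4 no point lies above 0.

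Origin licensing had the median nearest to 0 of the 5 steps, -0.70, with 7 of 9 genes below 0 and no gene called. The CDC6 loader showed the most negative difference. Cdc6, an ATPase that helps ORC load MCM2-7, had intensities of 535 and 318 on the positive arrays, against 944 and 943 on the negative arrays. Both positive values lay below both negative ones, but on the log2 scale the gap between them was nearly as wide as that between the higher of them and the negative arrays. The log2 difference of -1.19 ± 0.25 (limma's moderated SE, n = 2 per fraction, as for all errors of differences here) was not called (limma adjusted p = 0.0971). Cdt1, its partner in loading, was similar, with 731 and 505 on the positive arrays, against 1095 and 1136 on the negative arrays (-0.88 ± 0.19, limma adjusted p = 0.102). Gmnn, which encodes the CDT1 inhibitor geminin, had 112 and 69.6 on the positive arrays, against 213 and 145 on the negative arrays (-0.99 ± 0.29, limma adjusted p = 0.162). The loader and its inhibitor thus lay on the same side, and neither passed the test.

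The 6 ORC subunits, which mark origins and serve as the platform for loading, did not share 1 direction. Their median difference was -0.35, against -1.18 for the 6 subunits of the MCM2-7 ring that ORC loads. The difference between these medians was not tested. Orc1, the subunit that leaves or is degraded after licensing in mammalian cells, had 128 and 115 on the positive arrays, against 181 and 215 on the negative arrays (-0.70 ± 0.13, limma adjusted p = 0.0850). Orc6 showed a difference of -0.79 ± 0.13 (limma adjusted p = 0.0697). Orc2 and Orc5, subunits of the ORC core, differed by -0.36 ± 0.11 and -0.34 ± 0.10, smaller than any helicase gene.

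Orc3 and Orc4, also of the ORC core, were the exceptions. Orc3 had 1255 and 1176 on the positive arrays, against 919 and 1046 on the negative arrays. The positive values were higher on both arrays without overlap, and the difference of 0.31 ± 0.12 (95% interval 0.02 to 0.60) was not called (limma adjusted p = 0.241). Orc4 had 764 and 1178 on the positive arrays, against 610.0 and 925 on the negative arrays. The fractions overlapped, the second replicate was higher in both, and the difference of 0.34 ± 0.28 (95% interval -0.38 to 1.06, limma adjusted p = 0.629) was smaller than the spread between replicates.

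All 15 helicase genes lay below 0, with a median of -0.96, and 1 was called. Gins1, a subunit of the GINS complex that holds CDC45 on the MCM ring, had 234 and 177 on the positive arrays, against 506 and 513 on the negative arrays. Both positive arrays were well below the closely matching negative ones. Gins1 fell by 1.33 ± 0.16 on the log2 scale, with the negative fraction 2.51-fold higher (limma adjusted p = 0.0416). Without negative replicate 1 or 2 its limma adjusted p was 0.295 or 0.253. The other 3 GINS subunits lay below 0 without being called. Gins2 had the difference nearest to 0 of the step, with 552 and 424 on the positive arrays, against 611 and 825 on the negative arrays (-0.55 ± 0.20, limma adjusted p = 0.231). Its fractions did not overlap, although positive replicate 1 came close to negative replicate 1. Gins3 and Gins4 differed by -0.76 ± 0.13 and -0.66 ± 0.10.

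The 6 genes of the MCM2-7 ring, the motor of the helicase, spanned a narrow range of -1.30 to -0.92. Mcm6 had 1801 and 781 on the positive arrays, against 3176 and 2682 on the negative arrays (-1.30 ± 0.39, limma adjusted p = 0.170). Mcm3 had 1506 and 559.9 on the positive arrays, against 2301 and 2051 on the negative arrays (-1.24 ± 0.45, limma adjusted p = 0.230). Mcm5 had 736 and 414 on the positive arrays, against 1390.1 and 1304 on the negative arrays (-1.29 ± 0.28, limma adjusted p = 0.0993). In all 3 both positive arrays were below both negative ones, with positive replicate 2 lowest. Mcm3 had the widest SD between the positive arrays of all 50 genes, 1.01 on the log2 scale. Mcm2 and Mcm4 both had differences of -1.11, with SEs of 0.22 and 0.28, and Mcm7 had -0.92 ± 0.21. None of the 6 ring genes was called, and the lowest of their limma adjusted p-values was that of Mcm2 (0.0889).

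The other genes of the step, most of which complete or activate the helicase, behaved alike in direction. Cdc45, the core partner of GINS and MCM, had 541 and 295 on the positive arrays, against 974 and 818 on the negative arrays (-1.16 ± 0.30, limma adjusted p = 0.132). Mcm10, which acts in helicase activation, differed by -0.96 ± 0.21, and Mcm8, a paralog that works with MCM9 in recombination repair and not in the ring, by -0.77 ± 0.15. Cdc7, the catalytic subunit of the activating kinase, differed by -0.90 ± 0.21 and its regulatory subunit Dbf4 by -0.68 ± 0.26. None of these 5 was called, and in each both positive arrays lay below both negative ones.

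**Figure D4:**
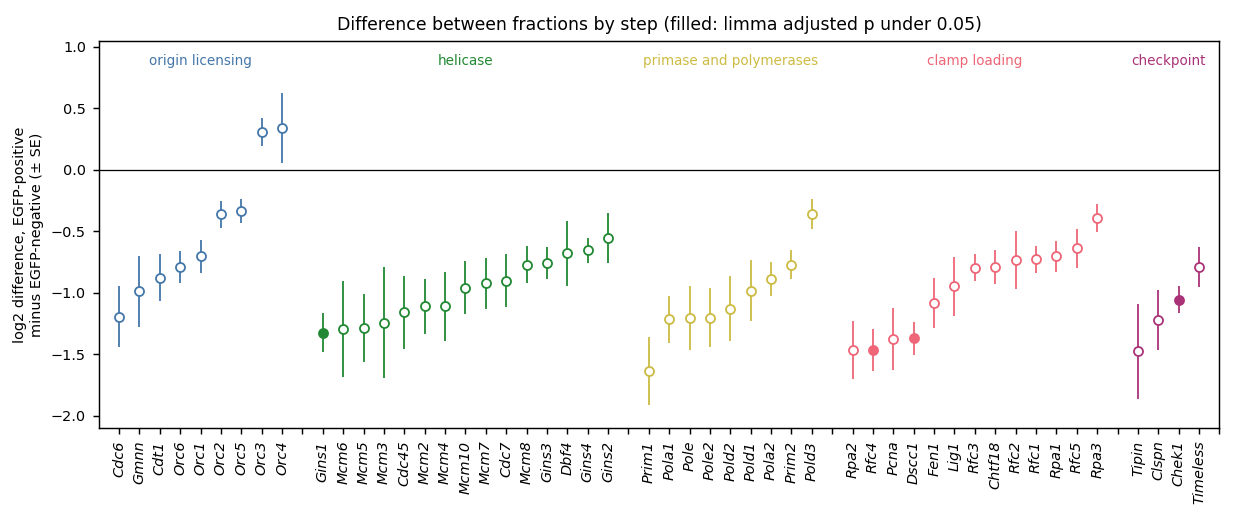
Log2 difference, EGFP-positive minus EGFP-negative, for the 50 genes by step, ordered within each step. Bars are limma's moderated SE with 2 arrays per fraction, and filled points have a limma adjusted p under 0.05. Gins1, Rfc4, Dscc1 and Chek1 are filled and have short bars, while Prim1 and Tipin are as low or lower with longer bars.

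Primase and polymerase genes had a median difference of -1.13, all 9 below 0 and none called. Without positive replicate 2 the median was -0.74, and without positive replicate 1 it was -1.48. Prim1, the catalytic subunit of primase that makes the RNA primers, had 569.7 and 321 on the positive arrays, against 1364 and 1294 on the negative arrays. The positive values were far below the negative ones and also differed from each other. Its difference of -1.64 ± 0.27 was the most negative of the 50 genes and the second most negative of all 22431 features by size, with the negative fraction 3.11-fold higher, but it was not called (limma adjusted p = 0.0751). Without positive replicate 2 its difference was -1.22, and without positive replicate 1 it was -2.05.

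Partners of PRIM1 were also below 0. Pola1, the catalytic subunit of polymerase alpha, had 641 and 443 on the positive arrays, against 1231 and 1243 on the negative arrays (-1.215 ± 0.19, limma adjusted p = 0.0677). Its accessory subunit Pola2 differed by -0.89 ± 0.14, and Prim2, the large primase subunit, by -0.77 ± 0.12. Limma adjusted p-values of the 4 genes of this complex lay between 0.0663 and 0.0751.

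Genes of the leading-strand polymerase epsilon, Pole and Pole2, differed by -1.21 ± 0.26 and -1.20 ± 0.24. Pold1 and Pold2, the catalytic and second subunits of polymerase delta, differed by -0.985 ± 0.25 and -1.13 ± 0.26. Pold3, another subunit of polymerase delta, had 1481 and 1244 on the positive arrays, against 1759 and 1727 on the negative arrays (-0.36 ± 0.12, limma adjusted p = 0.211). Its positive arrays were both below its negative arrays, by less than in any other gene of the step.

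In the clamp step all 13 genes lay below 0, with a median of -0.80 and 2 called. Rfc4, a small subunit shared by the clamp loader complexes, had 654 and 617 on the positive arrays, against 1498 and 2057 on the negative arrays. Here the positive arrays matched each other more closely than the negative ones did, and the fractions were far apart. Rfc4 fell by 1.47 ± 0.17 on the log2 scale, with the negative fraction 2.76-fold higher (limma adjusted p = 0.0408). Without positive replicate 2 its limma adjusted p was 0.0649, and without negative replicate 1 or 2 it was 0.127 or 0.166.

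Dscc1, which joins CHTF18 in the alternative clamp loader that also acts in sister chromatid cohesion, had 116 and 107 on the positive arrays, against 262 and 317 on the negative arrays. The highest positive value was less than the lowest negative one by more than the spread within either fraction. The positive values of Dscc1 were close to 107.6, the 25th percentile of mean intensity over all features. Those of Orc1 and Gmnn were also near or below it. Whether background signal limits the differences of these genes was not tested. Dscc1 fell by 1.37 ± 0.13, with the negative fraction 2.58-fold higher, and had the lowest adjusted p of the 50 genes (limma adjusted p = 0.0276). Without negative replicate 1 or 2 it was 0.155 or 0.177. Its partner Chtf18 missed the threshold at -0.79 ± 0.14 (limma adjusted p = 0.0805).

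Pcna, the sliding clamp, was measured by 2 features. The one with the higher mean had 1702 and 1058 on the positive arrays, against 3885 and 3132 on the negative arrays (-1.38 ± 0.25, limma adjusted p = 0.0836). The other had 1699 and 996 on the positive arrays, against 3995 and 3121 on the negative arrays (-1.44 ± 0.28, limma adjusted p = 0.0866). On both features the positive arrays were below the negative ones without overlap. RefSeq lists Pcna pseudogenes, so the nearly equal features may share signal from copies.

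The other RFC subunits had differences closer to 0 than Rfc4. Rfc3 had 444 and 436 on the positive arrays, against 813 and 718 on the negative arrays (-0.80 ± 0.11) and lay just outside the threshold (limma adjusted p = 0.0565). Rfc1, the large subunit of the canonical loader, differed by -0.73 ± 0.11, Rfc2 by -0.73 ± 0.24 and Rfc5 by -0.64 ± 0.16. All 4 had both positive arrays below both negative ones.

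Replication protein A, the trimer that coats single-stranded DNA, had subunits that spanned the step. Rpa2 had 551 and 353 on the positive arrays, against 1345 and 1108 on the negative arrays (-1.47 ± 0.24, limma adjusted p = 0.0692). Rpa3, the smallest subunit, had 168 and 179 on the positive arrays, against 244 and 213 on the negative arrays (-0.39 ± 0.12, limma adjusted p = 0.167). Rpa3 was the only gene of the 4 steps other than licensing in which positive replicate 2 exceeded positive replicate 1. Rpa1, the large DNA-binding subunit, differed by -0.70 ± 0.13. Fen1, the nuclease that trims Okazaki fragments, and Lig1, the ligase that joins them, differed by -1.08 ± 0.20 and -0.95 ± 0.24, and neither was called.

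The 4 checkpoint and fork protection genes had a median of -1.14, and 1 was called. Chek1, the kinase that slows replication when forks stall, had 663 and 595 on the positive arrays, against 1289.6 and 1323 on the negative arrays. Both fractions were tight, and they did not overlap. Chek1 fell by 1.06 ± 0.11, with the negative fraction 2.08-fold higher (limma adjusted p = 0.0293). Without positive replicate 2 its limma adjusted p was 0.0614, and without negative replicate 1 or 2 it was 0.2602 or 0.2301.

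Tipin, the partner of TIMELESS in the complex that stabilises paused forks, had 852 and 369 on the positive arrays, against 1663 and 1465 on the negative arrays. Positive replicate 2 was far below positive replicate 1, and the difference of -1.48 ± 0.39, the second most negative of the 50, was not called (limma adjusted p = 0.137). Timeless had 330.4 and 255 on the positive arrays, against 543 and 466 on the negative arrays (-0.79 ± 0.16, limma adjusted p = 0.0949). Clspn, which encodes claspin, the adaptor through which CHK1 is activated, had 442 and 273 on the positive arrays, against 872 and 749.9 on the negative arrays (-1.22 ± 0.25, limma adjusted p = 0.0904). In these genes too the positive arrays lay below the negative arrays without overlap.

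Other genes of replication and S phase lay in the same direction with a smaller median. Of 79 listed, 74 were measured, 69 were below 0, and the median difference was -0.65. Limma called 1 lower and none higher, with 56 lower and 2 higher at unadjusted p-values under 0.05. Over all features the shares were 0.143% lower and 0.82% higher after adjustment, and 9.83% lower and 9.34% higher before it, and the counts of the lists that follow stand against these. The called gene was Rbbp7, a histone chaperone of the RBAP family, which was measured by 2 features. Its feature with the higher mean had 1134 and 1115 on the positive arrays, against 1977 and 1866 on the negative arrays (-0.77 ± 0.10, limma adjusted p = 0.0489). The call was lost when each gene's features were averaged. The 14 genes of histone deposition and chromatin copying, among them Rbbp7, were all below 0, with a median of -0.995, and 13 had an unadjusted p under 0.05 with a negative difference. Without positive replicate 2 the limma adjusted p of Rbbp7 was 0.115, and without negative replicate 1 or 2 it was 0.329 or 0.263.

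Of nucleotide supply, 13 of 14 measured genes were below 0 (median -0.56) and none was called by limma, with 10 lower at an unadjusted p under 0.05. Rrm2, the S-phase subunit of ribonucleotide reductase, differed by -1.29 ± 0.25, and Dut, which removes dUTP, by -1.04 ± 0.17. Of other fork and origin proteins, 20 of 23 were below 0 (median -0.59) and none was called, with 17 lower and 2 higher at unadjusted p-values under 0.05. Cdca5, the cohesion factor sororin, differed by -1.29 ± 0.35 and Top2a, topoisomerase II alpha, by -1.14 ± 0.39. Rev3l, the catalytic subunit of the translesion polymerase zeta, named after its values were seen, ran the other way with 1856 and 2269.7 on the positive arrays, against 1062 and 1355 on the negative arrays (0.775 ± 0.17, limma adjusted p = 0.104). Of S-phase cyclins, kinases and E2F factors, 22 of 23 were below 0 (median -0.66) and none was called, with 16 lower at an unadjusted p under 0.05. Fbxo5, an inhibitor of the anaphase-promoting complex, differed by -1.34 ± 0.43 and E2f8, an atypical E2F repressor, by -1.195 ± 0.49. The listed genes without a measured feature were not analysed here.

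**Figure D5:**
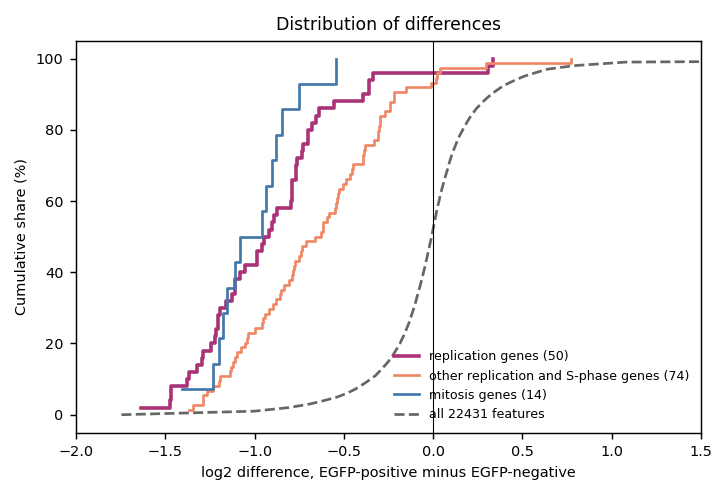
Cumulative share of genes or features (vertical, percent) at or below each log2 difference, EGFP-positive minus EGFP-negative (horizontal), for the 50 replication genes, 74 other replication and S-phase genes, 14 mitosis genes and all 22431 features. The replication curve has a median of -0.935, against -0.01 for all features, and the horizontal axis ends at 1.5, short of the highest features.

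The fractions differed as labelled in photoreceptor precursor genes, and purity of the fractions was not tested. The reporter itself is driven by the regulatory sequences of Crx. Crx had 3629 and 4759 on the positive arrays, against 292 and 370.1 on the negative arrays (3.66 ± 0.19, limma adjusted p = 0.00596). Of 9 photoreceptor precursor genes, limma called 7 higher (0.82% of all features), and 8 were higher at an unadjusted p under 0.05 (9.34%). Their summed intensities were 22648 to 24506 on the positive arrays, against 3931 to 3988 on the negative arrays. Sox2, a transcription factor of retinal progenitors, had 922 and 918 on the positive arrays, against 2405 and 2319 on the negative arrays (-1.36 ± 0.10, limma adjusted p = 0.0119).

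Other genes of dividing cells and of progenitors lay on the same side as the 50. Of 14 mitosis genes all were below 0 (median -1.02), and none was called by limma, with 10 lower at an unadjusted p under 0.05. Of all features, 9.83% were lower at that threshold. The sums of the mitosis genes were 7127 to 14063 on the positive arrays, against 17259 to 23634 on the negative arrays. Replicate 2 lay below replicate 1 in all 14 mitosis genes in both fractions. The median log2 gap was -0.99 on the positive arrays and -0.44 on the negative arrays, against 0.02 and -0.035 over all features. Of 12 progenitor genes 11 were below 0 (median -0.84), with sums of 19220 to 26283 on the positive arrays, against 37349 to 37884 on the negative arrays, and Sox2 was the 1 called. Their part in the result was not tested. The 9 ganglion cell genes measured had a median of 0.14, limma called none, and 0 had an unadjusted p under 0.05. On the second replicate 1 of the 9 was lower in each fraction, and the others were higher. All 11 amacrine and horizontal cell genes were above 0 (median 0.43). Limma called 2 higher (0.82% of all features), and 8 were higher at an unadjusted p under 0.05 (9.34% of all features). Markers of endothelium, microglia, pigment epithelium and lens had medians of 0.02, -0.07, 0.01 and 0.03, and limma called none of these 26, with 2 higher at unadjusted p-values under 0.05, a share near the 9.34% of all features.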

How the data were processed

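The submitters' processing notes name RMA, which corrects background, equalises the arrays' distributions and summarises probes into features, and the build mm8. For its version, probe sets and filters nothing is given in the sources used here. The deposited values are normalised intensity values, 1 column per array, from 18.9 to 36625.2, with array medians of 218.4 to 222.9, a range from which a linear scale was inferred. Log2 was taken without a pseudocount. Platform annotation gave 1 symbol to 20176 of 22431 features, and only these named genes.

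Differences were fitted on all 4 arrays and all features with limma 3.58.1 in R 4.3.3 (lmFit, eBayes without trend, fraction only). P-values are two-sided, with Benjamini-Hochberg adjustment over all features and a threshold of 0.05. The number of arrays limits the precision, with a median SE (log2) of 0.12 over all features and 0.20 over the 50 genes. The procedure was tested on simulated data with equal spread in both fractions. That test does not cover the wider spread of these genes on the positive arrays. Alternatives concerned the replicate block, scaling, filtering, variance trend, an added constant, mean of features and leaving out each array.

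The text names all 50 genes, with values per array for called genes, Pcna and the extremes of each step, up to 3 called members of each of the 4 lists of other replication and S-phase genes or, where none was called, the 2 largest by size, and Crx and Sox2. Per-array values of further genes were chosen after their values were seen. Members and lists were chosen with earlier results of these data known. Symbols of all 50 matched RefSeq. Promoter coordinates are GRCm38.p6, not the authors' build.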

Additional observations from a re-analysis of the deposited data

How the results depend on the processing

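With all 4 arrays, members called lower were the same 4 under median centring, another quantile normalisation, removal of features under the 25th percentile, a variance trend, a robust trend and an added 16. Averaging a gene's features added Rfc3. Features called lower, 32 in the reported fit, were 21 with a trend and 51 with averaged features. The call of Rbbp7 was lost with a trend, a robust trend and averaged features (limma adjusted p = 0.0729, 0.0598 and 0.0554). No result reversed, and 48 members were below 0 throughout. Apart from median centring and the quantile normalisation, the lack of overlap fixed this sign in advance. Leaving out 1 array gave 0 to 762 features lower, 0 to 667 higher and 0 to 41 members lower. The member median ran between -1.204 and -0.674, and the step medians between -0.784 and -0.578 (licensing), -1.234 and -0.639 (helicase), -1.482 and -0.743 (primase and polymerases), -1.03 and -0.675 (clamp) and -1.351 and -0.872 (checkpoint). The lone array of a fraction is then assumed to vary like the other fraction. The cause was not tested.

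Replicate numbers occur in both fractions, but the labels do not say what they share. Deviations of same-numbered arrays correlated across features (Pearson 0.48, Spearman 0.40, features not being independent), with only 2 pairs. With the replicate number as a block, limma called 43 members lower, 1500 features lower and 1377 higher, including the 4 reported calls.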
